A study of Mus musculus with 25 samples.

Results

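The genes described here are the 31 mouse genes of glucose uptake, glycolysis and glycogen turnover that were listed by symbol for this account: glucose transporters, hexokinases, the enzymes from glucose 6-phosphate to pyruvate, the PFK-2 regulators and the main enzymes of glycogen breakdown and synthesis. All 31 were found among the 56941 genes of the count table. In 30 of them the counts were high enough for testing, as they were in 17682 genes in all. Aldoc, an aldolase isoform gene best known from brain, was the exception.

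RNA was sequenced from 25 mouse hearts in 6 groups that cross genotype with treatment. Wild-type (WT) hearts came from 4 mice without a pump, 6 with saline and 3 with Ang/PE, and hearts labelled MCT1KO from 3 without a pump, 4 with saline and 5 with Ang/PE. Ang/PE is described by the submitters as neurohormonal agonists that make the heart muscle hypertrophy, and the stated question was how lactate is handled in that state with and without MCT1. The labels give neither the MCT1 allele, nor the cells in which it was deleted, nor age, strain, sex, dose or time of infusion. The p-values measure the spread between hearts.

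Heart muscle takes up glucose mainly through the insulin-regulated transporter GLUT4, with a smaller contribution from GLUT1. Hexokinase traps it as glucose 6-phosphate, which enters glycolysis or is stored as glycogen. Phosphofructokinase-1 makes the committed step of glycolysis, and PFK-2 enzymes set the level of fructose 2,6-bisphosphate, its strongest activator. Many of these steps are served by several isoform genes, and adult striated muscle favours Slc2a4, Pfkm, Pgam2, Eno3 and Pygm. In the hypertrophied heart, a greater reliance on glucose is a textbook feature.

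The total count of a library ran from 12216704 to 24880683, with a median of 17375875. Slc16a1, which encodes MCT1, was not lost in the hearts labelled MCT1KO. Its level was 166.5 to 223.1 CPM (counts-per-million) in the 3 MCT1KO hearts without a pump against 150.3 to 233.1 in the 4 WT ones. It was 132.3 to 194.3 CPM against 165.1 to 249.0 with saline, and 162.2 to 212.8 against 202.7 to 223.4 with Ang/PE. The genotype names are therefore used below only as labels. Cardiomyocyte markers (Myh6, Myl2, Tnnt2, Tnni3, Actc1, Ryr2) summed to 31729 to 62410 CPM in every heart, and the 6 skeletal muscle markers summed to at most 2.77 CPM.

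The saline hearts differed from the rest in tissue content. The 3 atrial muscle markers (Myl4, Myl7, Sln) together exceeded 100 CPM in 7 of the 10 saline hearts, up to 3679 CPM, and were at 1.5 to 5.7 CPM in the 15 hearts of the other treatments. MCT1KO saline replicate 4 stood apart, with the highest atrial sum and the lowest cardiomyocyte marker sum of all hearts. It had 1069 CPM of the 5 adipocyte markers, against 0.875 to 45.1 CPM in the other 3 hearts of its group. Ucp1, which defines brown fat, reached 551 CPM there. The calls of single members against saline are given with and without this heart, and the averaged ones also without all 7. Leaving out all 7 keeps WT saline replicates 1 and 2 and, alone in its group, MCT1KO saline replicate 3. A call kept or lost in that fit cannot be weighed, so only its fold changes are given. Xist, the transcript expressed in female cells, was above 100 CPM in 13 hearts and at most 0.536 CPM in 12. Among WT hearts, Xist was present in 2 of the 4 that had no pump, 1 of the 6 given saline and all 3 given Ang/PE. Among MCT1KO hearts the numbers were 0 of 3, 3 of 4 and 4 of 5, which leaves treatment and Xist unbalanced. The 5 MCT1KO Ang/PE hearts were apart in genes of the circadian clock (Per1, Dbp, Nr1d1 and others), which summed to 450.4 to 535.9 CPM against 559.9 to 860.5 CPM in the other 20 hearts. These 5 hearts enter every Ang/PE result below except those of WT hearts alone, and the part of the clock genes in them was not tested. In RNA of a mixed tissue, fewer cells of a type and less RNA per cell cannot be told apart.

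Per kilobase of transcript, the 31 genes spanned more than 4 orders of magnitude. Aldoa (fructose-bisphosphate aldolase) and Gapdh led with means of 1387 and 1357 CPM per kb over the 25 hearts. Eno3 (muscle enolase) followed at 562, Pygm (muscle glycogen phosphorylase) at 400, Pkm (pyruvate kinase) at 395, Pgam2 (muscle phosphoglycerate mutase) at 344 and Pfkm (muscle phosphofructokinase) at 338 CPM per kb. At the lower end were Pfkp, the platelet-type phosphofructokinase, at 16.7, Slc2a1 (GLUT1) at 7.04, Pfkfb3 at 5.77, Pygl at 2.94, Pfkfb4 at 1.44 and Aldoc at 0.0619 CPM per kb. The striated muscle isoforms dominated their enzymes. Slc2a4 (GLUT4) made up 95.05% of the 2 transporters, Pgam2 95.8% of the mutases, Eno3 89.0% of the enolases and Pfkm 86.4% of phosphofructokinase-1. Other enzymes were shared between isoforms: Hk2 held 58.1% and Hk1 41.9% of the hexokinases, and Pygm 62.2% and the brain-type Pygb 37.2% of the phosphorylases.

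**Figure D1:**
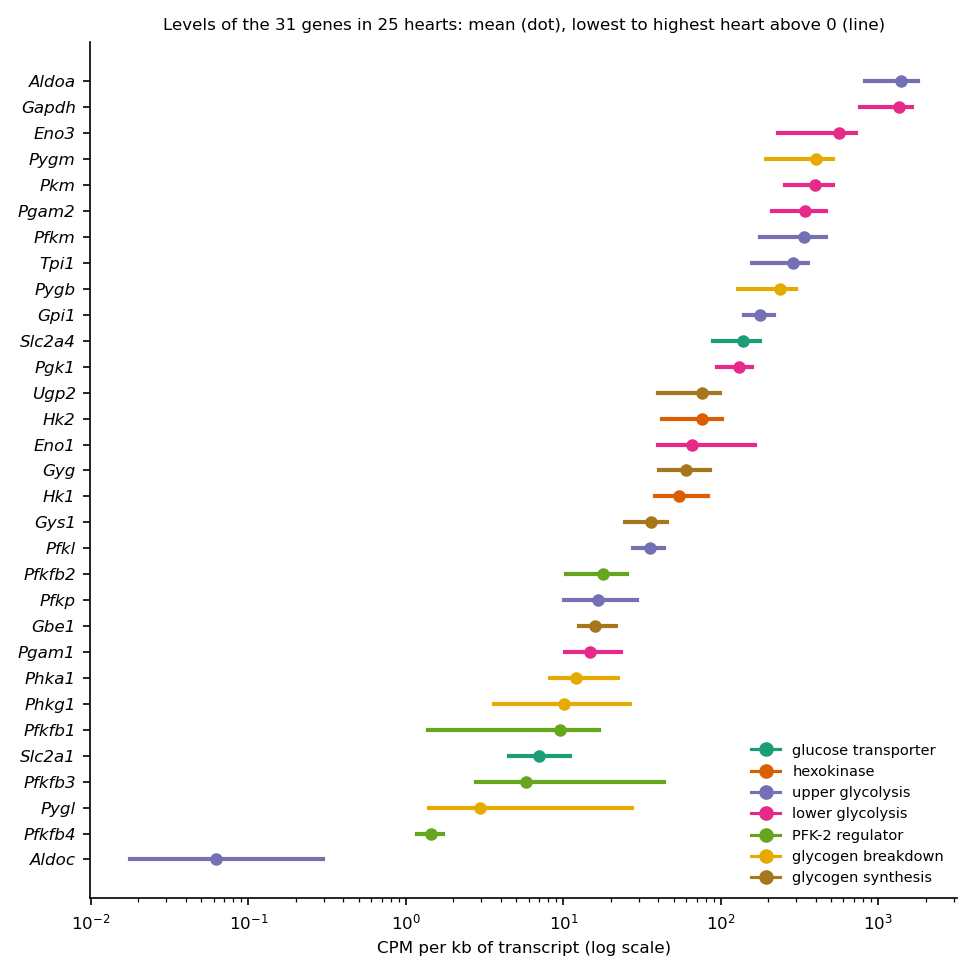
Level of each of the 31 genes in CPM per kb of its longest protein-coding transcript, on a log scale. Dots are means over 25 hearts and lines run from the lowest to the highest heart above 0, coloured by role. Aldoa and Gapdh are at the top near 1400 CPM per kb, and Aldoc at the bottom at 0.0619.

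Most of these genes did not pass the test for a treatment effect, and Pfkp was the only one called against both controls. Averaged over the 2 genotypes, Pfkp, Gyg and Ugp2 were higher and Phkg1 was lower with Ang/PE than with saline. These 4 of the 30 tested members were called, 3 higher and 1 lower, at an adjusted p below 0.05 by edgeR's quasi-likelihood test. Of all 17682 genes tested, 8.12% were called in this comparison, 3.89% higher and 4.22% lower, against which the 4 of 30 are to be read. The count was 7 without MCT1KO saline replicate 3, a fit that called 15.4% of all genes. With covariates for atrial and adipocyte markers none of the 4 calls was kept. Over the 9 settings other than single hearts left out, Pfkp ran from 0.55 to 0.77 and Gyg from 0.20 to 0.36. Ugp2 ran from 0.05 to 0.37 and Phkg1 from -1.26 to -0.49. The members' median log2 fold change was 0.04, with 19 of 30 above 0, against -0.01 over all genes. Without MCT1KO saline replicate 4 it turned to -0.02, with 14 above 0, and with the atrial and adipocyte covariates to -0.01, with 15 above 0. Against hearts without a pump, 1 of 30 was called, Pfkp, where 1.55% of all genes were called. The median of the members was 0.07 there and that of all genes -0.01. Both comparisons use the same Ang/PE hearts. The 95% interval of the change lay within 1.5-fold in either direction for 23 of the 30 members against saline and for 20 against no pump.

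**Figure D2:**
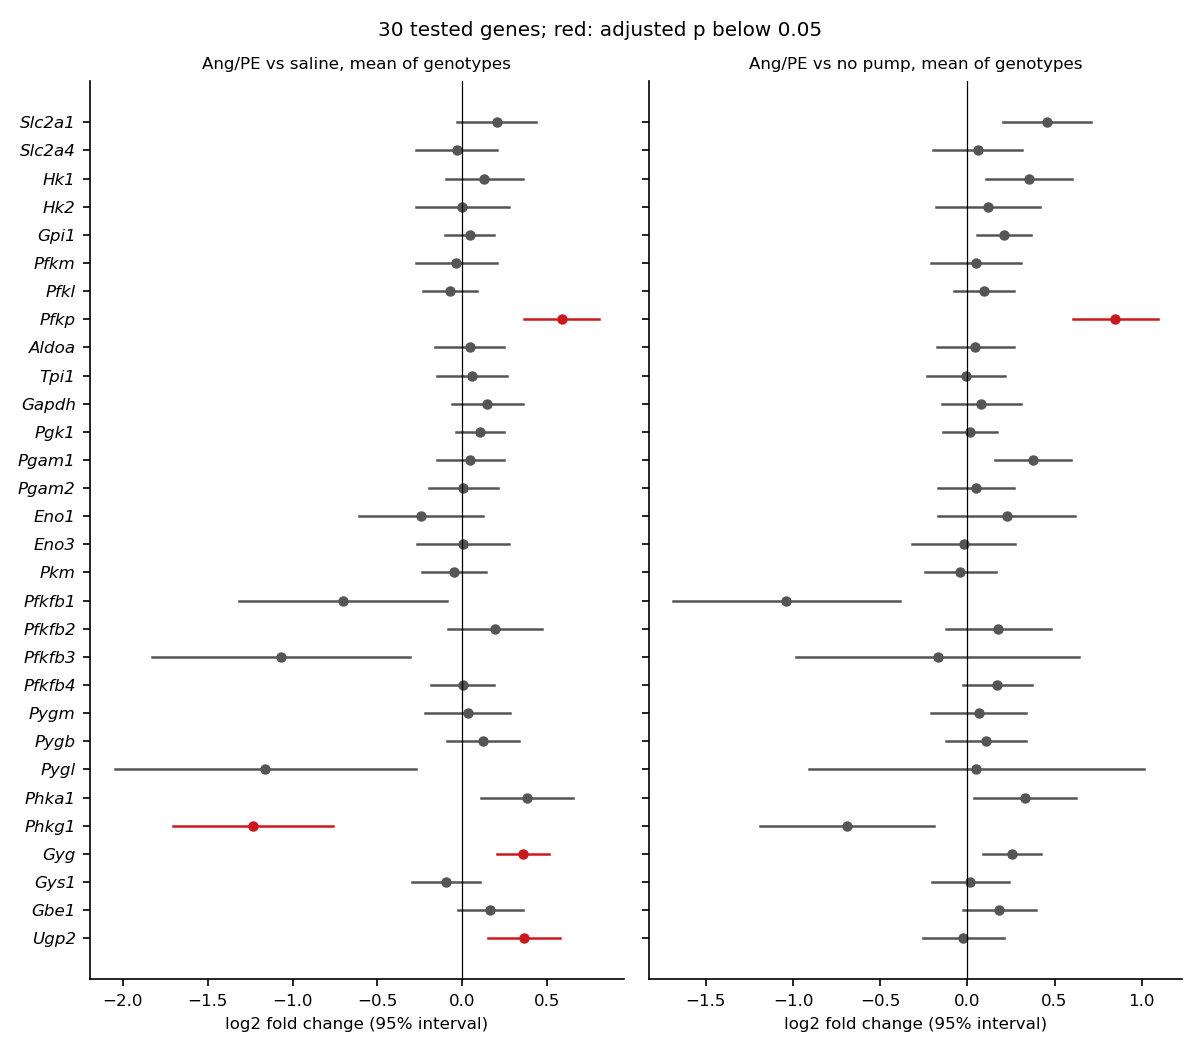
Log2 fold change of the 30 tested genes with its 95% interval, Ang/PE against saline (left) and against no pump (right), averaged over genotypes. Red marks an adjusted p below 0.05 by edgeR. Only Pfkp is red in both panels, and most intervals include 0.

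Pfkp, 1 of the 3 genes for phosphofructokinase-1, was higher in every Ang/PE heart than in any heart of the same genotype under saline or without a pump. The WT hearts with Ang/PE had 74.9, 72.0 and 108 CPM. The WT hearts without a pump had 52.3, 55.1, 56.9 and 47.0 CPM. With saline they ran from 45.6 to 70.1 CPM, with a median of 54.8. Neither WT control group overlapped the WT Ang/PE hearts. Of all genes tested, 6.39% were higher without overlap in WT Ang/PE than in WT saline hearts, and 3.63% than in WT hearts without a pump. The MCT1KO hearts with Ang/PE had 90.9, 122, 84.8, 87.8 and 118 CPM. With saline they had 72.8, 70.6, 57.9 and 67.4 CPM, and without a pump 47.1, 42.0 and 60.5 CPM. Here too no control heart reached the lowest Ang/PE heart. In MCT1KO hearts the shares of all genes higher without overlap were 3.06% against saline and 4.49% against no pump.

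Averaged over genotypes, Pfkp rose by 0.59 ± 0.11 (log2, SE) against saline, or 50.2%, with an adjusted p of 0.00474 by edgeR. Against no pump it rose by 0.85 ± 0.12, or 80.1%, with a 95% interval of 0.61 to 1.09 and an adjusted p of 0.00323 by edgeR. Within genotypes the change against saline was 0.59 ± 0.15 in both, with edgeR adjusted p of 0.0721 in WT and 0.0273 in MCT1KO hearts. Against no pump it was 0.68 ± 0.17 in WT (adjusted p = 0.286 by edgeR) and 1.01 ± 0.17 in MCT1KO hearts (adjusted p = 0.0064 by edgeR), where leaving out MCT1KO no pump replicate 2 gave 0.90 (adjusted p = 0.077). Without MCT1KO saline replicate 4 the averaged change against saline was again 0.59 (adjusted p = 0.00793 by edgeR), while that in MCT1KO hearts alone was 0.58 and no longer called (adjusted p = 0.112). Without the 7 saline hearts with atrial markers the averaged change against saline was 0.77. With Xist in the model the averaged change against no pump was 0.80 (adjusted p = 0.0396 by edgeR), and that in MCT1KO hearts was 0.95 (adjusted p = 0.0557).

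The other phosphofructokinase genes were not called. Pfkm changed by -0.03 ± 0.12 against saline and 0.05 ± 0.13 against no pump, and Pfkl, the liver type, by -0.07 ± 0.08 and 0.10 ± 0.08. As a share of the 3 genes per kb, Pfkp made up 3.77% ± 0.852 (SD, n = 4) of WT hearts' phosphofructokinase without a pump, and 3.17% ± 0.701 (n = 3) of that in MCT1KO hearts. Ang/PE hearts had 5.49% ± 1.88 (n = 3) and 6.21% ± 1.51 (n = 5), so it was the smallest component on average. The shares overlapped in WT hearts (2.86% to 4.8% without a pump, 4.37% to 7.67% with Ang/PE) and not in MCT1KO hearts (2.4% to 3.78% and 4.9% to 7.97%). With saline they were 2.55% to 4.08% in WT hearts, below Ang/PE, and 4.2% to 7.21% in MCT1KO hearts, which overlapped Ang/PE. Fibroblast markers (Pdgfra, Dcn, Col1a1, Tcf21) summed to 640 to 1289.9 CPM in the Ang/PE hearts and to 508 to 1282 CPM in hearts without a pump, ranges that overlap, and their part in the result was not tested. In GENCODE M21, Pitrm1, which encodes a mitochondrial peptidase, overlaps Pfkp on the opposite strand. Its averaged change was 0.18 ± 0.06 against saline and 0.06 ± 0.06 against no pump, and in MCT1KO hearts against saline, where Pfkp was called too, it rose by 0.27 ± 0.08 (adjusted p = 0.0498 by edgeR).

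Gyg and Ugp2 act before glycogen synthase: UGP2 makes UDP-glucose, and glycogenin, the product of Gyg, primes the new glycogen particle. Gyg had 121, 120 and 136 CPM in the WT and 133, 164, 123, 125 and 148 CPM in the MCT1KO hearts with Ang/PE. In WT saline hearts it ran from 94.1 to 116 CPM with a median of 103, and in MCT1KO saline hearts it had 112, 111, 111 and, in replicate 4, 77.7 CPM. In each genotype every Ang/PE heart was above every saline heart, as held for 6.39% of all genes in WT and 3.06% in MCT1KO hearts. The averaged rise over saline was 0.36 ± 0.07, or 28.0% (adjusted p = 0.00726 by edgeR), and 0.43 ± 0.10 in MCT1KO hearts (adjusted p = 0.0215 by edgeR). Without replicate 4 the values were 0.30 (adjusted p = 0.00915 by edgeR) and 0.31 (adjusted p = 0.122). Without the 7 hearts with atrial markers the averaged value was 0.26. Against no pump Gyg differed by 0.26 ± 0.08, which was not called (adjusted p = 0.104 by edgeR).

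Ugp2 was called between Ang/PE and saline and not between Ang/PE and no pump. With Ang/PE it had 192, 221 and 264 CPM in WT and 228, 228, 188, 223 and 212 CPM in MCT1KO hearts. With saline it ran from 151 to 207 CPM in WT hearts (median 192) and was at 159, 157, 210 and 107 CPM in MCT1KO hearts. Without a pump it had 237, 248, 206 and 228 CPM in WT and 229, 177 and 250 CPM in MCT1KO hearts. The saline hearts were thus the low ones, with overlap between groups. The averaged change against saline was 0.36 ± 0.10 (adjusted p = 0.0322 by edgeR), and against no pump -0.02 ± 0.11 (adjusted p = 0.954). Saline against no pump gave -0.39 ± 0.11 (adjusted p = 0.0617 by edgeR). Without replicate 4 the change against saline was 0.29 (adjusted p = 0.0499 by edgeR), and without the 7 hearts with atrial markers it was 0.09. Over the 9 settings other than single hearts left out, the lowest change was 0.05. The call was lost with the atrial and adipocyte covariates and with the replicate block. It was lost with only the groups compared (adjusted p = 0.0507 by edgeR), with Xist in the model (0.119) and with GC and length offsets (0.0616). It was also lost in 7 of the 25 fits that left out a heart, up to 0.145 without WT Ang/PE replicate 3.

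Phkg1 encodes the muscle catalytic subunit of phosphorylase kinase, which activates glycogen phosphorylase. It was the only member called lower in the averaged comparison with saline. The MCT1KO hearts had 14.5, 10.3, 12.3, 16.6 and 8.65 CPM with Ang/PE against 41.3, 37.8, 18.4 and 62.8 CPM with saline. The WT hearts had 17.5, 20.97 and 11.01 CPM with Ang/PE against 18.8 to 43.0 CPM with saline, median 27.5. The groups were apart in MCT1KO hearts, where 2.36% of all genes were lower without overlap, and overlapped in WT hearts. The averaged change was -1.23 ± 0.23 (adjusted p = 0.00501 by edgeR), with -1.69 ± 0.30 in MCT1KO (adjusted p = 0.011 by edgeR) and -0.78 ± 0.33 in WT hearts (adjusted p = 0.204). Without replicate 4 the averaged value was -1.08 (adjusted p = 0.00928 by edgeR), and without the 7 hearts with atrial markers it was -0.49. Against no pump it was -0.69 ± 0.24 (adjusted p = 0.151 by edgeR). The gene model of Phkg1 overlaps those of Chchd2, Gm42790, Sumf2 and Zbed5 in GENCODE M21, and Chchd2, the most abundant of those measured at 216 CPM, changed by 0.02 ± 0.08. Phka1, the muscle regulatory subunit of the same kinase, was at 0.38 ± 0.13 against saline and was not called by edgeR (adjusted p = 0.0693). DESeq2 called it higher (0.39, adjusted p = 0.0447).

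**Figure D3:**
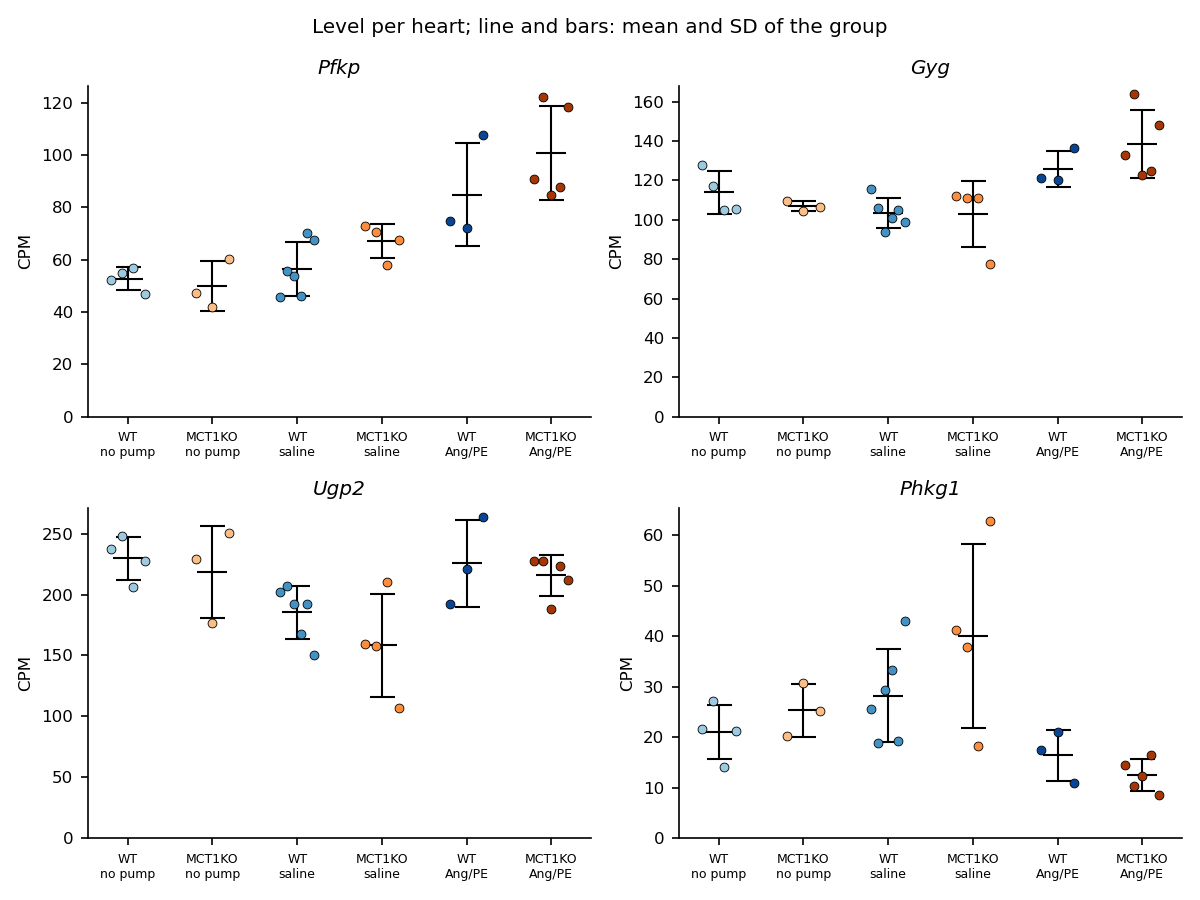
CPM of Pfkp, Gyg, Ugp2 and Phkg1 in each of the 25 hearts by group, with the group mean and SD. The Ang/PE hearts of each genotype lie above their own controls for Pfkp, whereas for Ugp2 the saline hearts are low and the hearts without a pump are level with Ang/PE.

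The promoters of Pfkp, Gyg, Ugp2 and Phkg1 are printed because they are the members called by edgeR in the averaged comparison with saline. Each is the 250 bases before the RefSeq transcription start on GRCm38.p6, 5′ to 3′ on the gene's strand, and for Ugp2 the first of the listed starts. Capitals mark matches on either strand to ACGTG or GCGTG (cores of the hypoxia response element), CACGTG (the E-box bound by MYC and by the carbohydrate response factor) and GGGCGG (the GC box). A CACGTG match also counts as ACGTG.
Pfkp, chr13:6648772-6649021, minus strand: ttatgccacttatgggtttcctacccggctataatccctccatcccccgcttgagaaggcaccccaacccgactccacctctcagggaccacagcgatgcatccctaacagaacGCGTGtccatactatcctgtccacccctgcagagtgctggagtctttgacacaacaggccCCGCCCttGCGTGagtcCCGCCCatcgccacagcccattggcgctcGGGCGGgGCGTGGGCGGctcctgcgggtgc
Gyg, chr3:20155117-20155366, minus strand: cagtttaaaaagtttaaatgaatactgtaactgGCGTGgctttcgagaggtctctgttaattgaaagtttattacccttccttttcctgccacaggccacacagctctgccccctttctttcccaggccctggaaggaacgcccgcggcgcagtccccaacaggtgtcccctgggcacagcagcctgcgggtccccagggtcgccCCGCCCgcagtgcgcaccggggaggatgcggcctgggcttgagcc
Ugp2, chr11:21371268-21371517, minus strand: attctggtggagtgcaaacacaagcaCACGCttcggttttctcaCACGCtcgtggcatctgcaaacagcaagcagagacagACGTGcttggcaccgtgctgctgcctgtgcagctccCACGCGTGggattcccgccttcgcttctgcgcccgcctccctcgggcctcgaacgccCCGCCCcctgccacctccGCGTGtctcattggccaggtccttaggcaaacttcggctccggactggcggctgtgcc
Phkg1, chr5:129879089-129879338, minus strand: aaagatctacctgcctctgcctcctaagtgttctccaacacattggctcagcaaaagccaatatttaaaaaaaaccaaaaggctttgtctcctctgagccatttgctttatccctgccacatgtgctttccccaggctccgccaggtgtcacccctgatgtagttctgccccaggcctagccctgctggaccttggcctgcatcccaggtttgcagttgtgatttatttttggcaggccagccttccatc
The Pfkp window held 3 GCGTG and 4 GGGCGG matches, with 1 of each overlapping by a base. Gyg held 1 of each. Ugp2 held 1 ACGTG, 5 GCGTG and 1 GGGCGG, and Phkg1 held none of these letters. None of the 4 held CACGTG. Of all 32851 windows of the same length, 28.2% held GCGTG, 16.6% ACGTG, 32.7% GGGCGG and 6.02% CACGTG. RefSeq promoters were found for 30 of the 31 genes, with 47 windows, of which 53.2% held GCGTG, 36.2% ACGTG, 48.9% GGGCGG and 6.38% CACGTG. A match is a run of letters, not a measured binding site.

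In hearts labelled MCT1KO alone, 5 of 30 members were called between Ang/PE and saline, 2 higher (Pfkp, Gyg) and 3 lower (Phkg1, Pfkfb3, Pygl), where 4.46% of all genes were called, 1.75% higher and 2.7% lower. Pfkfb3, the inducible PFK-2 isoform, and Pygl, the liver phosphorylase, were called only with 1 heart included. Pfkfb3 had 27.8, 22.4, 19.3 and 208 CPM in the 4 saline hearts, the last being replicate 4, and 22.4, 13.3, 16.8, 14.7 and 14.05 CPM with Ang/PE. Pygl had 6.92, 6.48, 5.69 and 81.3 CPM against 6.86, 7.47, 5.57, 4.49 and 5.04 CPM. With replicate 4 the log2 changes were -2.10 ± 0.49 (adjusted p = 0.0223 by edgeR) and -2.09 ± 0.57 (adjusted p = 0.0392). Without it they were -0.53 (adjusted p = 0.148 by edgeR) and -0.12 (adjusted p = 0.8288). Without that heart edgeR called no member in this comparison, where it called 0.222% of all genes, and 8 members passed at an unadjusted p below 0.05, against 13.4% of all genes. The count was 1 without MCT1KO Ang/PE replicate 5, where 2.29% of all genes were called, and 3 without replicate 2 of that group, where 4.08% were.

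The same heart was also apart for isoforms of lower glycolysis. Its Eno1 (the widely expressed enolase) was at 333 CPM against 108 to 136 in the other 3 hearts, and its Eno3 at 359 against 862 to 942 CPM. Eno1 was 41.7% of the enolases in it, where the highest share in the MCT1KO Ang/PE hearts was 15.6%. Aldoa, Gapdh, Pfkm and Pygm were each lowest of all 25 hearts there.

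**Figure D4:**
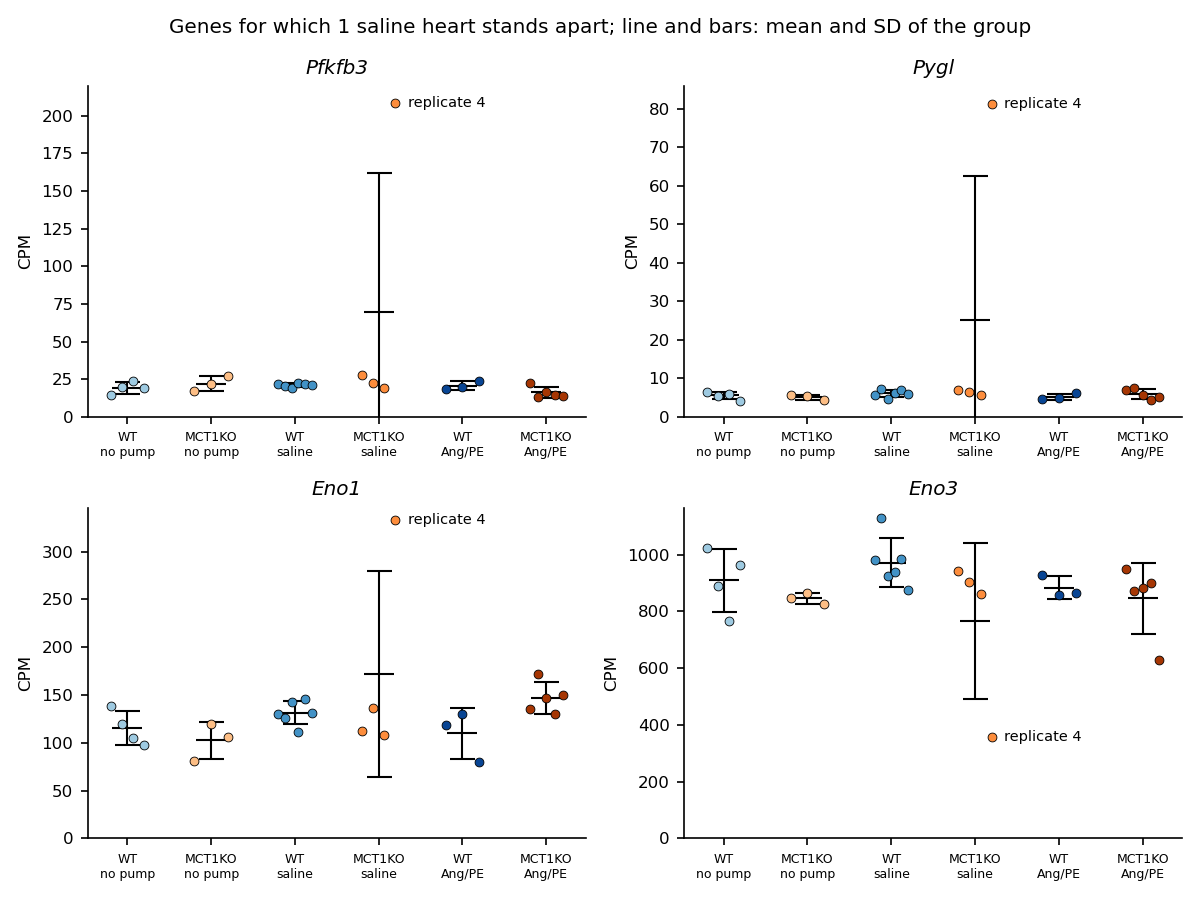
CPM of Pfkfb3, Pygl, Eno1 and Eno3 in each heart by group, with mean and SD (the axis starts at 0, so lower bars that would run below it are cut). MCT1KO saline replicate 4 is far above its group for Pfkfb3 (208), Pygl (81.3) and Eno1 (333) and far below it for Eno3 (359).

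In WT hearts alone, no member was called between Ang/PE and saline by edgeR, where 0.017% of all genes were called. At an unadjusted p below 0.05, 3 members passed, against 19.1% of all genes. DESeq2, fitted to all 56941 genes, called 1 member (Pfkp) and 1.14% of the genes. Its shares here and below are of all 56941 genes, including those too low for edgeR to test. They are therefore not comparable with edgeR's shares of 17682 genes or with the members' counts. The WT median was -0.13, with 22 of 30 below 0, and the MCT1KO median 0.22, with 24 of 30 above 0. Without replicate 4 the MCT1KO median was 0.10, with 23 above 0, and with the atrial and adipocyte covariates it was 0.04, with 17 above 0. Across 13002 genes, Spearman's rho between GC content and change was -0.39 in WT and 0.02 in MCT1KO hearts. It was 0.32 for the difference between these responses. With GC and length offsets the WT median was -0.07, with 10 above 0, and the MCT1KO median 0.20, with 24 above 0. The difference between the genotypes' responses was tested as an interaction: 0 of 30 members were called by edgeR, as were 0% of all genes, and 10 passed at an unadjusted p below 0.05, against 13.5% of all genes. DESeq2 also called 0 members, and 0.0193% of its genes. Pygb had the smallest p, with an interaction of 0.68 ± 0.21 (adjusted p = 0.294 by edgeR). Pygb had 505 to 885 CPM in the 4 MCT1KO saline hearts and 983 to 1119 CPM in the 5 with Ang/PE. Without replicate 4 the number of members passing at an unadjusted p below 0.05 was 3, against 9.56% of all genes.

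Against no pump, 2 members were called in MCT1KO hearts, both higher, Pfkp and Pgam1, where 0.503% of all genes were called. In this comparison 6 members were higher without overlap and 1 lower, where 8.45% of all genes did not overlap in either direction. Pgam1, the widely expressed phosphoglycerate mutase, had 25.2, 40.3, 29.5, 28.9 and 33.9 CPM with Ang/PE and 21.3, 18.2 and 18.5 CPM without a pump. It rose by 0.71 ± 0.15 (adjusted p = 0.0269 by edgeR). It also stood at 23.98 to 41.5 CPM in the MCT1KO saline hearts, and its change against saline was 0.09 ± 0.13. In WT hearts Pgam1 differed from no pump by 0.04 ± 0.15, and no member was called there by edgeR, as were 0% of all genes, while 2 passed at an unadjusted p below 0.05, against 9.02% of all genes, and DESeq2 called 1 (Pfkp) and 0.0615% of its genes. The call of Pgam1 was lost when any 1 of the 3 MCT1KO hearts without a pump was left out, and with MCT1KO Ang/PE replicate 2 or 5 left out, with edgeR adjusted p from 0.0535 to 0.256. With Xist in the model it was 0.82 (adjusted p = 0.0581 by edgeR). The 3 MCT1KO hearts without a pump were all without Xist.

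Several members lay near the threshold against no pump. Slc2a1 (GLUT1) had 22.5, 22.4 and 29.7 CPM in WT and 28.7, 35.7, 22.7, 23.6 and 27.3 CPM in MCT1KO hearts with Ang/PE, and 14.7 to 25.7 CPM in the 7 hearts without a pump. The averaged difference was 0.46 ± 0.12 (adjusted p = 0.0563 by edgeR). Slc2a4 (GLUT4) differed by 0.06 ± 0.12. Pfkfb1, a PFK-2 isoform, was lower with -1.04 ± 0.31 but not called by edgeR (adjusted p = 0.0963), and it ran from 2.58 to 12.9 CPM in the MCT1KO Ang/PE hearts. DESeq2 called Pfkfb1 lower in MCT1KO hearts alone (-1.40, adjusted p = 0.0331). In the averaged comparison DESeq2 called Pfkfb1 lower (-1.03, adjusted p = 0.0206). It called Slc2a1 (0.46, adjusted p = 0.0204), Pgam1 (0.38, adjusted p = 0.0238) and Pfkp higher. When MCT1KO saline replicate 4 was left out, which is in neither group of this comparison but enters the filter, the scaling and the shared spread, 4 of 30 were called, all higher: Pfkp (0.85), Pgam1 (0.38, adjusted p = 0.0156 by edgeR), Slc2a1 (0.46, adjusted p = 0.0385) and Gyg (0.26, adjusted p = 0.0322). In that fit 2.94% of all genes were called.

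**Figure D5:**
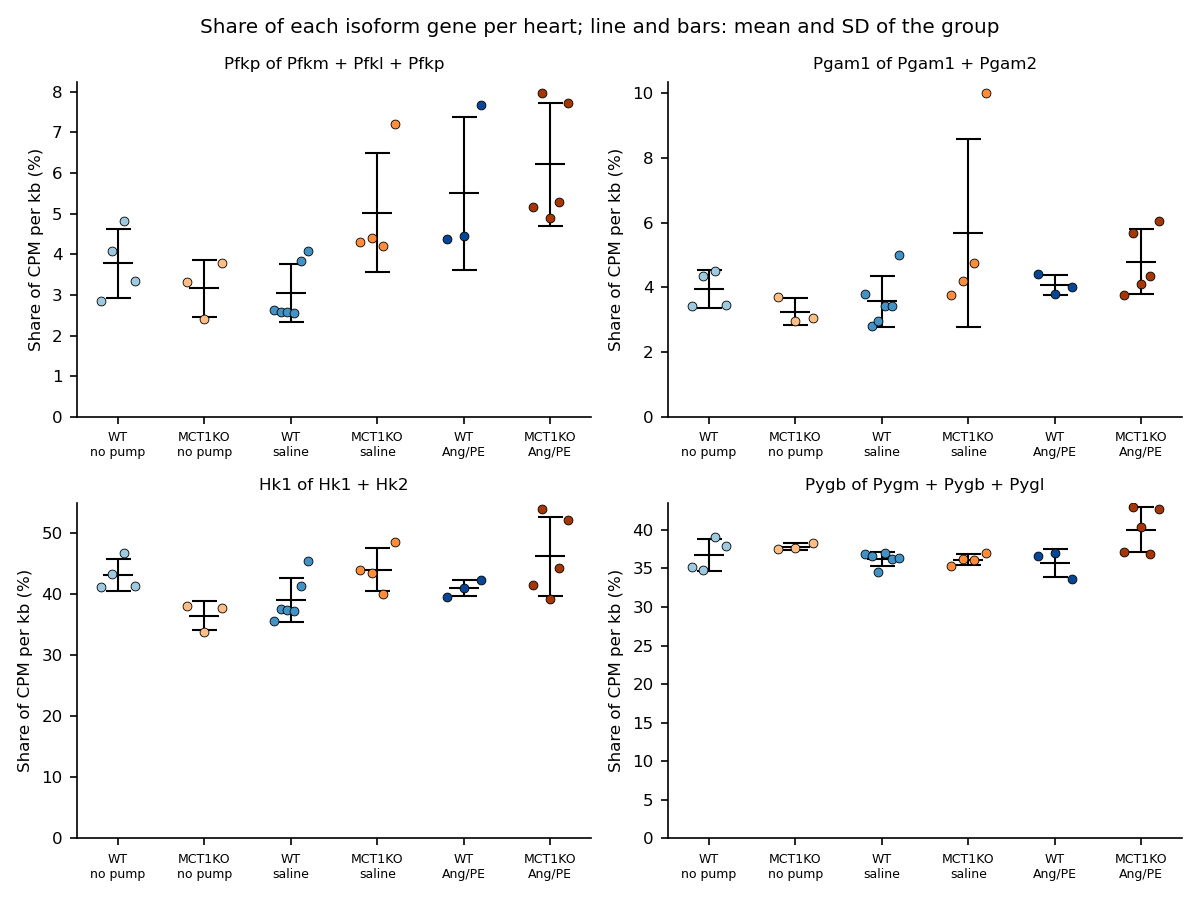
Share of 1 isoform gene in its enzyme per heart, in percent of CPM per kb, by group with mean and SD. Pfkp averages 3.77% (WT) and 3.17% (MCT1KO) of phosphofructokinase-1 without a pump and 5.49% and 6.21% with Ang/PE, with overlap in WT hearts, and the highest Pgam1 share, 10%, is that of MCT1KO saline replicate 4.

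By role and by edgeR, the averaged comparison with saline gave no call among 2 transporters, 2 hexokinases, 7 genes of lower glycolysis and 4 PFK-2 regulators. Hk1 and Hk2, which start glycolysis, differed by 0.13 ± 0.11 and -0.00 ± 0.13. The 7 lower glycolysis genes ran from -0.24 (Eno1) to 0.15 (Gapdh), with a median of 0.01. Without replicate 4, Eno1 was at 0.03, Gapdh at 0.07, Hk1 at 0.08 and Hk2 at -0.08. Among upper glycolysis 1 of 6 tested was called, Pfkp. Among glycogen breakdown 1 of 5 was called, Phkg1, and among glycogen synthesis 2 of 4, Gyg and Ugp2. Of all genes tested, 8.12% were called in this comparison, and roles of so few genes cannot be weighed against that share. In the fit of all 25 hearts, neither Gyg nor Ugp2 was called against no pump, averaged. Gys1, glycogen synthase itself, was at -0.10 ± 0.10, and Gbe1, the branching enzyme, at 0.17 ± 0.09. Pygm and Pygb, the main phosphorylases, were at 0.03 ± 0.12 and 0.12 ± 0.10. Without replicate 4, Gys1 was at -0.10, Gbe1 at 0.25, Pygm at -0.06 and Pygb at 0.05, and none of these 4 was called.

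Saline pumps alone gave no call among the members by edgeR: 0 of 30 in WT, in MCT1KO and averaged, where 6.61%, 0.00566% and 0.803% of all genes were called. At an unadjusted p below 0.05, 9, 7 and 10 members passed, against 24.3%, 12.1% and 18.6% of all genes. DESeq2 called Hk2 and Gpi1 higher in WT hearts, Pgam1 higher in MCT1KO hearts, and Pgam1 higher and Ugp2 lower in the average. It called 3.44%, 0.372% and 1.32% of its 56941 genes there. Those include genes too low for edgeR to test, so these shares cannot be set against the members' counts. Whether the genotypes differed in this response was also tested: edgeR called 0 of 30 members and 0.00566% of all genes, 8 members passed at an unadjusted p below 0.05, against 17.2% of all genes, and DESeq2 called 1 and 0.648% of its genes. In WT hearts 24 of 30 were above 0 with a median of 0.18, against 0.00 over all genes. GC content moved with this comparison: Spearman's rho between a gene's GC content and its change was 0.40, taken across 13002 genes and not over replicates. The tested members had a median GC of 53.1% against 49.3%. With GC and length offsets the members' median was 0.12. Without MCT1KO saline replicate 4, 2 members were called higher in WT hearts, Hk2 (0.52, adjusted p = 0.0328 by edgeR) and Pfkm (0.40, adjusted p = 0.0356), where 9.59% of all genes were. Hk2 had 240 to 441 CPM in the WT hearts without a pump and 374 to 559 CPM with saline.

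Between genotypes, 0 of 30 members were called by edgeR without a pump, with saline or with Ang/PE, as were 0% of all genes in each. At an unadjusted p below 0.05, 3, 10 and 2 members passed, against 12.2%, 17% and 6.92% of all genes, and DESeq2 called 0 in each, with 0.183%, 0.255% and 0.00702% of its genes. Without replicate 4 the number with saline at that unadjusted p was 2, against 6.89% of all genes. With Ang/PE, Hk1 had the smallest p among the members: it had 238, 233 and 178 CPM in WT and 239, 356, 252, 295 and 324 CPM in MCT1KO hearts, a difference of 0.44 ± 0.17 (adjusted p = 0.692 by edgeR). The interval of the genotype difference lay within 1.5-fold for 20, 16 and 22 of the 30 members.

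A list of 56 other genes of the pathway (further transporters, glycogen-targeting phosphatase subunits, the pentose phosphate branch and regulators) was described in the same fit, and 52 were tested. Against saline and averaged, 1 was called higher and 6 lower, where 8.12% of all genes were called (3.89% higher and 4.22% lower), and the list's median was -0.05. Ppp1r3c, a subunit that brings protein phosphatase 1 to glycogen, was the one called higher. It had 134.8 ± 12.3 CPM (SD, n = 3) in WT and 162.4 ± 27.1 (n = 5) in MCT1KO hearts with Ang/PE, and 97.0 ± 5.56 (n = 6) and 110.9 ± 19.2 (n = 4) with saline. The change was 0.51 (adjusted p = 0.00329 by edgeR), and 0.49 without replicate 4 (adjusted p = 0.00535). Against no pump it was 0.37 (adjusted p = 0.048 by edgeR), and it was the only one of the 52 called there. In WT hearts its change from no pump to saline was -0.40 (adjusted p = 0.0389 by edgeR). The other genes of smallest p called against saline were Phka2 (-0.31), Tbc1d1 (-0.99), which regulates GLUT4 vesicles, Ppp1r3b (-0.60) and Slc2a10 (-0.81). Without replicate 4, 3 of the 52 were called higher, Ppp1r3c and Slc2a3 among them, and 1 lower, where 5.78% of all genes were called. The lower one was Tkt, a transketolase, and no other of the 6 lower calls was kept.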

How the data were processed

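Total RNA of 25 mouse hearts was depleted of ribosomal RNA and sequenced from stranded libraries, per the labels' protocols. The authors deposited 1 table of raw read counts per Ensembl gene. The submitters' processing notes name cutadapt 1.16, STAR 2.7.9a, featureCounts 1.6.3, DESeq2 1.42.1 and the mouse build GRCm39 (mm39), with no role given. The annotation release and strand setting are not given in the sources used here, so reads of overlapping genes may be misassigned. Symbols, transcript lengths, GC content and gene overlaps came from GENCODE M21 (GRCm38), and promoters from RefSeq (GRCm38.p6), a build other than that of the counts, so coordinates are printed for the promoter windows only. Aldoa matched 2 identifiers, of which the second, with at most 17 counts in a heart, was not used. Genes without a symbol held 0.778% of the reads.

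Counts were analysed in edgeR 4.0.16 (TMM, filterByExpr with a minimum count of 10, robust quasi-likelihood fit) with 1 mean for each of 6 groups, all 25 hearts and 19 residual degrees of freedom. For 14 comparisons, p-values were adjusted by Benjamini-Hochberg over all 17682 tested genes within each, with a threshold of 0.05. CPM values use TMM library sizes. All 31 members were accounted for. Those called by edgeR in the fit of all hearts are given for the groups of the call, by heart or, for WT saline hearts, by range and median. The members and lists were chosen with earlier results of these data known. Alternatives were DESeq2 1.42.0, RLE scaling, no filter, only the groups compared, a replicate block, covariates for Xist or for atrial and adipocyte markers, GC and length offsets (mgcv 1.9.3) and each heart left out. Leaving out the 7 saline hearts with atrial markers was chosen after seeing the data. The test was checked on simulated counts. None of the 43 pairs of hearts within a group agreed within sampling noise. The lowest chi-square per degree of freedom was 3.33, for MCT1KO saline replicates 1 and 2, against a median of 23.0 over the pairs.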

Additional observations from a re-analysis of the deposited data

Results flagged for a closer look

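For each of the 30 tested genes, the highest and lowest heart of every group of 4 to 6 hearts was compared with the rest by Dixon's criterion. Of 120 such tests, 9 found a heart far from the others, where chance gives about 1 in 20.

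Of these, 6 concerned MCT1KO saline replicate 4, the heart with atrial and adipocyte markers. It was high for Pfkfb3 (208 CPM, the other 3 hearts at 19.3 to 27.8) and Pygl (81.3 CPM, others 5.69 to 6.92). It was low for Aldoa (1271 CPM, others 1985 to 2077), Gapdh (1089 CPM, others 1811 to 1908), Eno3 (359 CPM, others 862 to 942) and Gyg (77.7 CPM, others 111.0 to 111.9).

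The others were spread over 3 hearts. Gpi1, glucose 6-phosphate isomerase, was high in MCT1KO Ang/PE replicate 2 (630.9 CPM, others 544.9 to 567.0). Eno3 was low in MCT1KO Ang/PE replicate 5 (629 CPM, others 872 to 949.8). Pfkfb2, the heart PFK-2 isoform, was low in WT saline replicate 6 (55.8 CPM, others 86.4 to 90.5).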

How the results depend on the processing

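Of the 12 calls of single genes, RLE scaling kept 12, GC and length offsets 11, no filter 11 and DESeq2 10, giving no adjusted p for the other 2 (Pfkfb3 and Pygl). The replicate block kept 8, the Xist covariate 7 and the fit with only the groups compared 5. The atrial and adipocyte covariates kept 3. Leaving out the 7 saline hearts with atrial markers left MCT1KO saline replicate 3 alone in its group, so the calls of that fit are not counted. Pfkp against no pump, averaged, was called with each of the 25 hearts left out. Under the covariates Pfkfb3 and Pygl (MCT1KO, Ang/PE against saline) turned to 0.13 and 0.61, and Pygl to 0.040 without the 7 hearts. The causes were not tested. With 3 to 6 hearts a group, small changes of low genes such as Pfkfb4 and Pygl are limited by counts and spread.

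The numbers of members called for Ang/PE against saline in MCT1KO hearts (5) became 0 with only the groups compared, 0 with the covariates and 3 with Xist. The averaged count (4) became 0 with the covariates, and of its genes Ugp2 was called in 3 of 9 settings. In WT hearts (0) it became 1 with DESeq2 and 1 with only the groups compared. For Ang/PE against no pump, the count in MCT1KO hearts (2) became 1 with only the groups compared and 0 with Xist. The WT count (0) there became 1 with DESeq2, and the averaged count (1) became 4 with DESeq2 and 2 with the covariates. For saline against no pump, the WT count (0) became 2 with DESeq2 and 2 with only the groups compared, the MCT1KO count (0) 1 and the averaged count (0) 2 with DESeq2. The genotype difference with saline (0) became 1 with Xist, and the interaction of genotype with the saline pump (0) 1 with DESeq2. These counts stand without the share of all genes called in the same setting. A changed count is therefore not by itself a change of the members.

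With each heart left out in turn, the counts ran from 0 to 2 for genotype with saline, 0 to 0 for genotype without a pump or with Ang/PE, and 0 to 0 for the interaction with Ang/PE. They ran from 0 to 1 (WT), 0 to 5 (MCT1KO) and 3 to 7 (averaged) for Ang/PE against saline. They ran from 0 to 5, 0 to 4 and 0 to 6 for saline against no pump, 0 to 0, 0 to 3 and 1 to 4 for Ang/PE against no pump, and 0 to 2 for the interaction with the saline pump. Leaving out MCT1KO saline replicate 3 gave the averaged 7 against saline, the 1 in WT hearts, and the 4 and 6 for saline against no pump, and, as did leaving out replicate 2, the 2 for genotype with saline. Leaving out WT no pump replicate 1 gave, for the saline pump, the WT count of 5 and the 2 of its interaction. Leaving out MCT1KO no pump replicate 2 gave the 0 for Ang/PE against no pump.

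Hearts of the same number share only the number: correlations of their deviations from group means ran from -0.23 to 0.40, and were not above 0.1 in every pair of any comparison. With a replicate block, the members called in MCT1KO hearts went from 5 to 3 for Ang/PE against saline and from 2 to 1 against no pump (Pfkfb3, Pygl and Pgam1 lost). Averaged over genotypes and against saline, Ugp2 also lost its call under the block (0.32, adjusted p = 0.079 by edgeR).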
